A study of Mus musculus with 15 samples.

Results

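The 8 genes Siglech, Tcf4, Spib, Ly6d, Klk1, Pacsin1, Bst2 and Runx2, all known for strong transcription in plasmacytoid dendritic cells of the mouse, were followed by symbol through a bulk RNA sequencing table of 38315 genes from bone marrow. All 8 were found, and all 8 passed the filter on low values that left 18941 genes for testing. By the table Siglech, Spib and Klk1 lie on chromosome 7, Pacsin1 and Runx2 on chromosome 17, Bst2 on chromosome 8, Ly6d on chromosome 15 and Tcf4 on chromosome 18. The 15 libraries came from leukaemic marrow of NUP98-NSD1/FLT3-ITD mice (acute myeloid leukaemia, AML, 7 libraries), from whole marrow of wild-type mice (4 libraries) and from lineage-negative marrow of wild-type mice (4 libraries). NUP98-NSD1 is a fusion of a nucleoporin with the histone methyltransferase NSD1, and the ITD allele carries a tandem duplication that leaves the receptor kinase FLT3 active without its ligand. Lineage-negative marrow is marrow from which cells bearing surface proteins of mature blood lineages were removed, and it is rich in stem and progenitor cells. The series' design text calls the leukaemic mice transgenic. The promoters of the transgenes, the age of the mice and the antibodies of the lineage depletion are not given in the sources used here, and no sort is named for the AML marrow. The design sets the leukaemic marrow against each kind of wild-type marrow.

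Plasmacytoid dendritic cells are rare, long-lived dendritic cells of the bone marrow and lymphoid organs that sense viral nucleic acids through endosomal Toll-like receptors and answer with large amounts of type I interferon. Their identity depends on the E protein TCF4, which binds E-boxes in DNA, and is opposed by ID2, an inhibitor that keeps E proteins off DNA and is high in conventional dendritic cells. SPIB, an Ets-family factor, and RUNX2 act with TCF4. Of the surface proteins, Siglec-H is an endocytic receptor of murine plasmacytoid dendritic cells that signals through the adaptor TYROBP. BST2, also called tetherin and used as a marker of these cells in mice, holds budding virus at the cell surface and is induced by interferon in many cell types. LY6D is a small membrane-anchored protein of early B cell progenitors and of lymphoid plasmacytoid progenitors. KLK1 is a secreted serine protease of the tissue kallikreins, and PACSIN1 is a membrane-bending adaptor of endocytosis best known from neurons.

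Values are the authors' normalized counts, given as mean ± SD over libraries. Replicates are the numbered samples of the labels, and p-values measure only the spread between these samples, which may be technical in part. An estimate of depth from the smallest steps of the values gave 20.2 to 35.1 M reads (M, mega) in the AML libraries, 11.4 to 17.2 M in those of whole marrow and 20.3 to 28.1 M in the lineage-negative ones. A count of 3 reads, the limit that a count of 0 allows, corresponded to 1.96 to 4.10 normalized counts. The whole-marrow libraries stood apart in another way: the mean over 1452 olfactory and vomeronasal receptor genes, which marrow is not known to use, was 7.14 to 13.5 normalized counts there and 0.384 to 0.499 in lineage-negative marrow. AML replicate 6 had a mean of 3.81 and AML replicate 5 one of 1.33, while the other 5 AML libraries lay between 0.465 and 0.746. Over all genes tested, the median log2 difference from whole marrow was 0.67 in AML and 0.59 in lineage-negative marrow, and AML minus lineage-negative marrow gave 0.02. For this reason differences from whole marrow were also computed after rescaling by trimmed mean of M values (TMM), which lowers them by close to that shift. In bulk RNA, fewer cells of a type and less RNA per cell cannot be told apart.

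The 8 genes fell into different patterns over the 3 kinds of marrow. Siglech, Spib, Ly6d, Klk1 and Pacsin1 were lowest in lineage-negative marrow, where their means were 0.943 to 44.4 normalized counts. Tcf4, Bst2 and Runx2 were lowest in whole marrow and had means of 679 to 1656 normalized counts in lineage-negative marrow. A difference passed the test here when the limma p-value, adjusted by Benjamini-Hochberg over all 18941 genes, was under 0.05 and the log2 difference was at least 1 in size. By that rule 4 of the 8 genes were higher in AML than in whole marrow (Bst2, Runx2, Tcf4 and Pacsin1) and 0 were lower. Against lineage-negative marrow 6 were higher in AML, all but Tcf4 and Runx2, and 0 were lower. Between the wild-type groups 5 were lower in lineage-negative marrow and 1, Runx2, was higher.

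**Figure D1:**
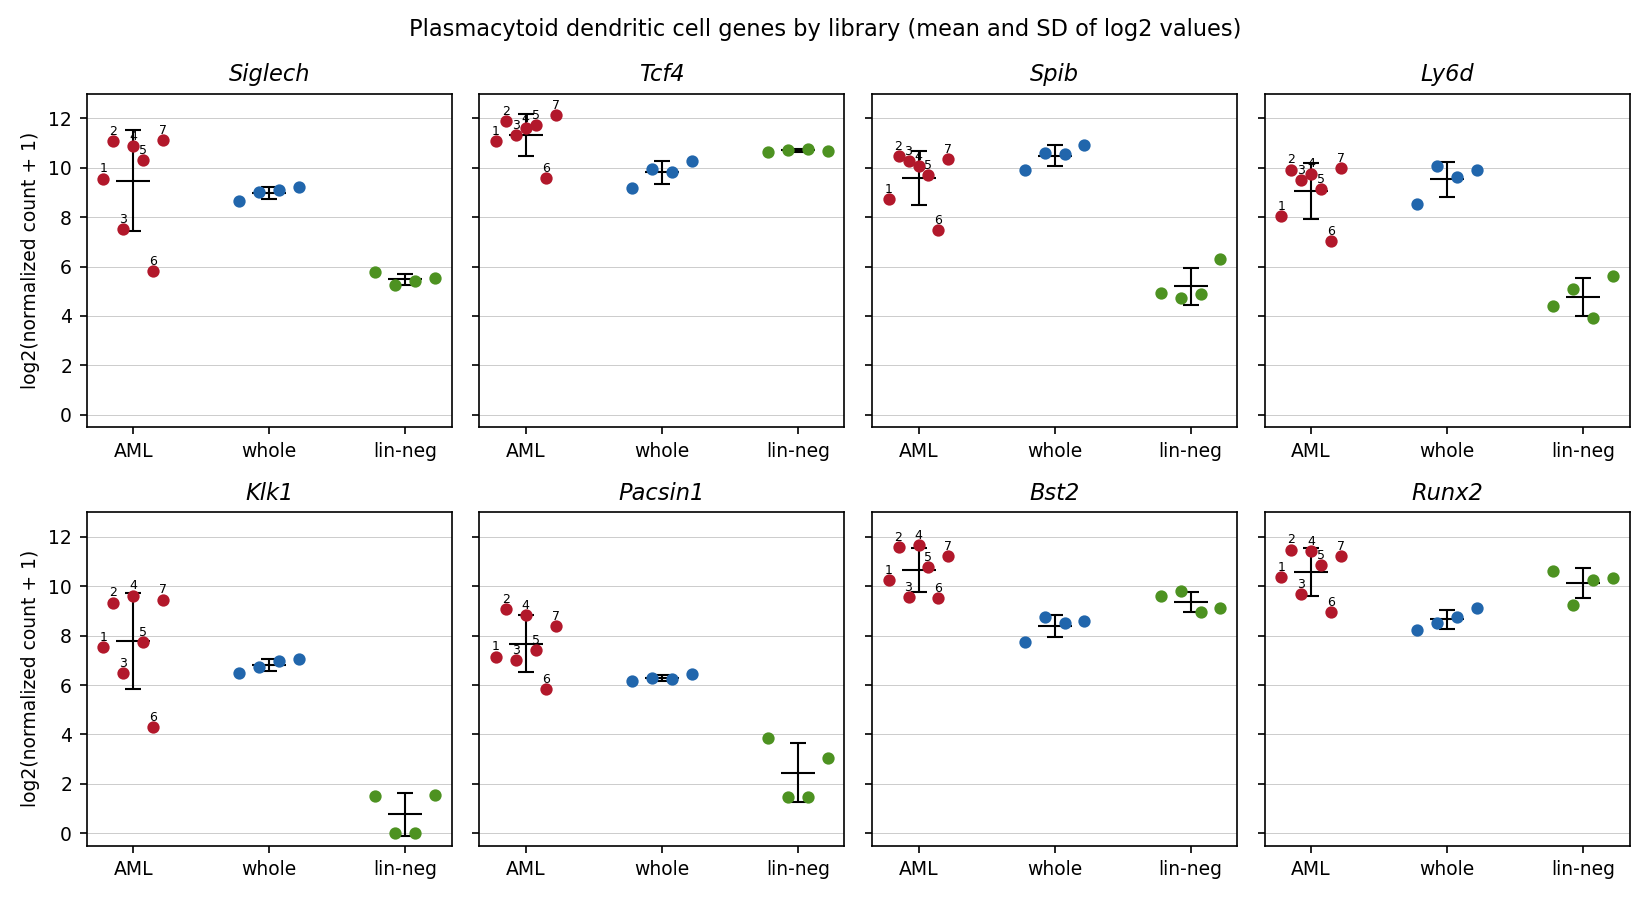
Each panel shows 1 gene, with log2(normalized count + 1) on the vertical axis and the 7 AML, 4 whole and 4 lineage-negative (lin-neg) libraries as points. AML points carry their replicate numbers, and bars give the mean and SD of the log2 values; AML replicate 6 is the lowest AML point in all 8 panels.

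These counts were read against all genes tested, and the shares given here also apply to the counts of the gene lists below. In AML against whole marrow 27.3% of all genes were called higher and 11.3% lower, and after TMM scaling 4.92% were called higher and 15.8% lower. TMM scaling left 2 of the 8 genes higher in AML, Bst2 and Runx2, and made 1 lower, Spib. In AML against lineage-negative marrow 17.7% of all genes were called higher and 12.5% lower. In lineage-negative against whole marrow 33.1% were called higher and 17.2% lower, or 10.8% and 24.8% after TMM scaling, under which 0 of the 8 genes were higher and 5 were lower. Taking the median over the 8 genes, AML minus whole marrow gave a log2 difference of 1.18 (0.50 after TMM scaling), AML minus lineage-negative marrow gave 4.13 (4.16), and lineage-negative minus whole marrow gave -3.66 (-4.34). Both comparisons with AML share the AML libraries, so their values are given side by side and no correlation between them was computed.

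**Figure D2:**
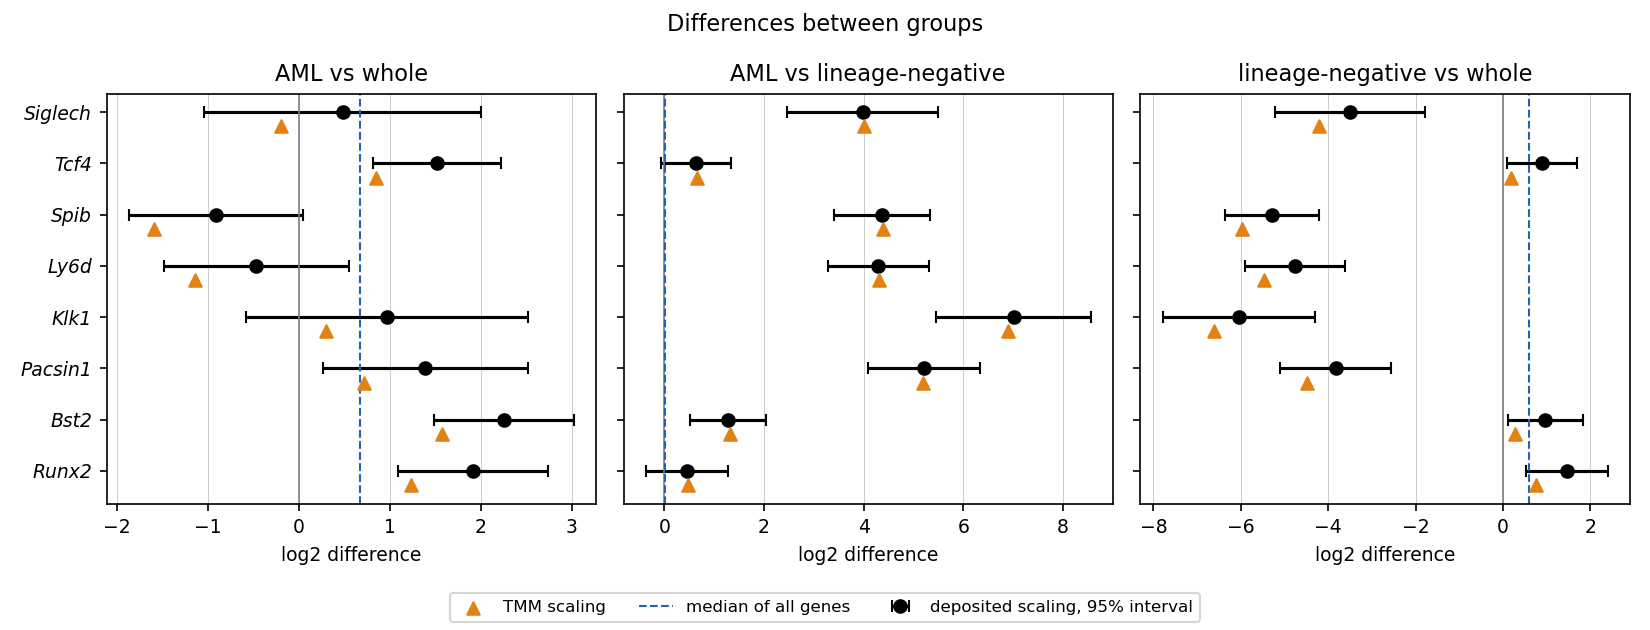
Log2 differences of the 8 genes in the 3 comparisons (horizontal axis; first group minus second). Circles and bars are the limma estimates with 95% intervals on the deposited scaling, triangles the estimates after TMM scaling, and the dashed line the median of all genes, which lies at 0.67 in the comparison of AML with whole marrow.

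Tcf4 (ENSMUSG00000053477), whose product directs the plasmacytoid dendritic cell programme, was the most evenly expressed of the 8 genes in lineage-negative marrow, with 1584, 1702, 1706 and 1633 normalized counts in replicates 1 to 4. Whole marrow had 579.8, 985, 917 and 1224, and the AML libraries ranged from 763 to 4453 with a median of 3127. Every AML library but replicate 6 lay above all 8 wild-type libraries. The means were 2883 ± 1209 (n = 7) in AML, 926 ± 266 (n = 4) in whole and 1656 ± 58.8 (n = 4) in lineage-negative marrow. Tcf4 was 2.87-fold higher in AML than in whole marrow (log2 difference 1.52, SE 0.34, limma adjusted p = 0.000753). After TMM scaling the log2 difference was 0.84 and fell short of 1. Against lineage-negative marrow the log2 difference of 0.63 did not pass the test (limma adjusted p = 0.137, 95% interval -0.07 to 1.34). Without AML replicate 6 that difference was 0.93 (limma adjusted p = 0.00199), so it still fell short of 1 but the p-value turned on that library.

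Spib (ENSMUSG00000008193), which encodes an Ets factor shared by plasmacytoid dendritic cells and B cells, had its highest mean in whole marrow. The 4 whole-marrow libraries had 948, 1544, 1505 and 1941 normalized counts, and the lineage-negative libraries 29.05, 25.6, 28.2 and 79.0. AML libraries ranged from 175 to 1419 with a median of 1069. The means were 923 ± 472 (n = 7), 1484 ± 409 (n = 4) and 40.4 ± 25.7 (n = 4) in AML, whole and lineage-negative marrow. No AML library lay above all whole-marrow libraries and 3 of 7 lay below all of them, whereas 7 of 7 lay above all lineage-negative libraries. Spib was 20.7-fold higher in AML than in lineage-negative marrow (log2 difference 4.37, SE 0.46, limma adjusted p = 2.15e-07). Against whole marrow the log2 difference was -0.91 (SE 0.46, limma adjusted p = 0.0888), and after TMM scaling, at -1.59 (adjusted p = 0.0119), it passed the test as lower in AML.

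Runx2 (ENSMUSG00000039153), known both as a factor of plasmacytoid dendritic cells and as the master regulator of bone-forming cells, had 302, 359, 431 and 559 normalized counts in whole marrow and 1568, 600.1, 1229 and 1299 in lineage-negative marrow. Its AML values ranged from 499 to 2860.5 with a median of 1830.0. Of the 7 AML libraries, 6 lay above all whole-marrow libraries, while the AML and lineage-negative ranges overlapped. Runx2 was 3.77-fold higher in AML than in whole marrow (log2 difference 1.91, SE 0.40, limma adjusted p = 0.000405; 1.24 after TMM scaling, adjusted p = 0.0216). Against lineage-negative marrow its log2 difference was 0.45 (adjusted p = 0.372, 95% interval -0.37 to 1.28). Lineage-negative marrow exceeded whole marrow by 1.46 on the log2 scale (adjusted p = 0.00768), a call that was lost at 0.75 after TMM scaling (adjusted p = 0.165). Of 6 markers of bone-forming and stromal cells that passed the filter, 0 were higher and 2 lower in AML than in whole marrow, or 4 lower under TMM scaling, and 3 were higher (Alpl, Cxcl12 and Lepr) and 1 lower (Col1a2) than in lineage-negative marrow. The summed level of all 8 listed was 203 to 1503 normalized counts in AML, 1099 to 2148 in whole and 181 to 1330.2 in lineage-negative marrow. Bglap, the osteocalcin gene, was listed at 0 in 4 of 4 whole-marrow, 4 of 7 AML and 1 of 4 lineage-negative libraries, with up to 9.19 normalized counts in the last group. Sp7, which encodes an osteoblast factor downstream of RUNX2, was highest in whole marrow, at 9.39 to 13.4 normalized counts. Its highest value was 4.94 among the AML libraries and 1.82 among the lineage-negative ones. Receptor-gene signal scaled to the exonic length of Sp7 overlapped its whole-marrow values, at 6.45 to 12.2 normalized counts. No AML library exceeded 3.44 for that signal, and no lineage-negative one exceeded 0.451. The part of receptor-gene signal in the order of Sp7 was not tested. The part of bone-forming and stromal cells in the Runx2 values was not tested either.

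Siglech (ENSMUSG00000051504), the receptor gene most often used to mark murine plasmacytoid dendritic cells, had 400.3, 516, 544 and 593 normalized counts in whole marrow. Lineage-negative marrow had 53.6, 37.0, 41.4 and 45.7. The AML libraries ran from 55.5 to 2224 with a median of 1279, so that the highest was 40.1 times the lowest. Of the 7, 5 lay above all whole-marrow libraries and 2, replicates 3 and 6, lay below all of them, while all 7 lay above all lineage-negative libraries. The means were 1221 ± 913 (n = 7) in AML, 513 ± 81.9 (n = 4) in whole and 44.4 ± 7.04 (n = 4) in lineage-negative marrow. Siglech was 15.8-fold higher in AML than in lineage-negative marrow (log2 difference 3.98, SE 0.73, limma adjusted p = 0.00016) and 11.3-fold lower in lineage-negative than in whole marrow (log2 difference -3.50, adjusted p = 0.00103; -4.20 after TMM scaling). The difference between AML and whole marrow did not pass the test (log2 difference 0.48, 95% interval -1.04 to 2.00, limma adjusted p = 0.577). The sign of that difference turned with scaling, to -0.20 after TMM. Without AML replicate 6 the log2 difference from lineage-negative marrow was 4.59, and that from whole marrow 1.09 (adjusted p = 0.0639).

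Bst2 (ENSMUSG00000046718), the tetherin gene, was the only 1 of the 8 that passed the test as higher in AML in both comparisons and under TMM scaling. Its counts were 214, 429, 367 and 379 in whole marrow, 782, 891, 496 and 548 in lineage-negative marrow, and 727 to 3239 with a median of 1757 in AML. All 7 AML libraries lay above all whole-marrow libraries, and 5 of 7 above all lineage-negative libraries. The difference from whole marrow was 4.77-fold (log2 difference 2.25, SE 0.37, limma adjusted p = 4.93e-05; 1.58 after TMM scaling, adjusted p = 0.0021). From lineage-negative marrow it was 2.43-fold (log2 difference 1.28, SE 0.37, limma adjusted p = 0.00736). Because interferon induces Bst2, the interferon-response genes stand beside it: of 12 listed, 8 were higher and 1 lower in AML than in whole marrow, and 11 were higher and 0 lower than in lineage-negative marrow. Under TMM scaling the count against whole marrow was 3 higher and 2 lower. Of all genes tested, 27.3% were called higher in AML than in whole marrow (4.92% under TMM scaling) and 17.7% higher than in lineage-negative marrow. The summed level of the 12 ran from 10711 to 45497 normalized counts in AML, 8177 to 16551 in whole and 2230.1 to 3216 in lineage-negative marrow. Rsad2, the 1 gene called lower in AML, had 4312 to 9372 normalized counts in whole marrow and 547 to 1832 in AML. It made up a large part of the whole-marrow sum. The part of the interferon response in the Bst2 difference was not tested. Between the wild-type groups Bst2 did not pass the test (lineage-negative minus whole marrow 0.97 on the log2 scale, limma adjusted p = 0.0475; 0.27 after TMM scaling, adjusted p = 0.594).

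Ly6d (ENSMUSG00000034634) counts were 363, 1064, 776 and 963 in whole marrow and 19.97, 33.5, 14.1 and 48.3 in lineage-negative marrow. The AML libraries ran from 128 to 1019 with a median of 725, and 0 of 7 lay above all whole-marrow libraries. Ly6d was 19.6-fold higher in AML than in lineage-negative marrow (log2 difference 4.29, SE 0.49, limma adjusted p = 5.98e-07). Against whole marrow it did not pass the test (log2 difference -0.47, 95% interval -1.48 to 0.55, limma adjusted p = 0.408), and after TMM scaling the difference was -1.15 with an adjusted p of 0.0673. Of 8 relatives in the Ly6 family, 7 passed the filter. Among them 6 were higher in AML than in whole marrow, or 4 under TMM scaling, and 5 were higher than in lineage-negative marrow, with 0 lower in either comparison. The shares of all genes called higher were 27.3%, 4.92% and 17.7% in that order. Ly6h did not pass the filter and was listed at 0 in 4 of 4 lineage-negative libraries.

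Klk1 (ENSMUSG00000063903), the tissue kallikrein gene, was at or under the level of 3 reads in all 4 lineage-negative libraries. They had 1.82, 0, 0 and 1.96 normalized counts, with a mean of 0.943, or 0.605 without replicate 4, against 88.9, 105, 124 and 131 in whole marrow. AML libraries ranged from 18.5 to 784 with a median of 210.5. Against a floor of 2.73 normalized counts per library, the AML mean of 376 ± 321 (n = 7) was at least 138-fold higher than lineage-negative marrow. The whole-marrow mean of 112 ± 19.1 (n = 4) was at least 41.1-fold higher. For the lowest single library the bound was only 6.79-fold in AML and 32.6-fold in whole marrow. Both group differences from lineage-negative marrow passed the limma test, with adjusted p-values of 2.37e-07 and 5.56e-06. AML and whole marrow did not differ by the test (log2 difference 0.97, SE 0.74, limma adjusted p = 0.26; 0.29 after TMM scaling). Of the AML libraries, 5 exceeded every whole-marrow library and 2 were under every one. That outcome turned on 1 library: without AML replicate 6 the log2 difference was 1.55 (adjusted p = 0.0193).

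Klk1 has close relatives whose reads can be confused with its own, and how the counting treated such reads is not given in the sources used here, so its level is uncertain to that extent. Of 9 other kallikrein genes found in the table, 2 passed the filter. Klk1b27, a member of the mouse Klk1b cluster, was listed at 0 in all 4 lineage-negative libraries, had 8.04 to 17.7 normalized counts in whole marrow and 11.1 to 132.7 in AML, and was highest in AML replicates 2, 4 and 7. The AML mean was 22.9-fold above the lineage-negative floor, and the lowest AML library 4.07-fold. Klk8 had another order, and its 146 to 234 normalized counts in lineage-negative marrow exceeded the 17.95 to 36.2 of whole marrow, with 19.7 to 151 in AML.

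Pacsin1 (ENSMUSG00000040276), the endocytic adaptor gene, had 70.9, 76.4, 74.1 and 87.3 normalized counts in whole marrow, the tightest range of any of the 8 genes there. Lineage-negative marrow had 13.6, 1.76, 1.76 and 7.18, of which 2 were at or under the level of 3 reads. In AML the values ran from 55.5 to 543 with a median of 169, and 6 of 7 AML libraries lay above all whole-marrow libraries. Pacsin1 was 37.1-fold higher in AML than in lineage-negative marrow on the log2(value + 1) scale (log2 difference 5.21, SE 0.54, limma adjusted p = 1.81e-07). Without replicate 1 the lineage-negative mean of 6.08 fell to 3.57. Against whole marrow the log2 difference of 1.39 (SE 0.54, limma adjusted p = 0.031) passed the test, but at 0.71 after TMM scaling (adjusted p = 0.336) it did not. The call was also lost on leaving out AML replicate 2, 4 or 7 or whole-marrow replicate 1, 2 or 3, with log2 differences of 1.15 to 1.38 and adjusted p-values of 0.0568 to 0.0838. The signal of receptor genes, scaled to the exonic length of Pacsin1, came to 12.4 to 23.4 normalized counts in whole marrow, and subtracting it gave a log2 difference of 1.71 (adjusted p = 0.0237).

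The order of the 8 genes by level was set per kilobase of exon, since longer genes collect more reads. In AML, Bst2 was highest at 2078 ± 1156 normalized counts per kilobase (n = 7), followed by Ly6d at 869 ± 466.2. Siglech, Klk1 and Spib came next at 361, 349 and 322, differing by less than their SDs, and Runx2, Tcf4 and Pacsin1 closed the order at 202, 105 and 39.9. In whole marrow Ly6d led at 1064 ± 416 (n = 4), with Spib at 518, Bst2 at 385 and Siglech at 152. In lineage-negative marrow Bst2 at 752 ± 208 (n = 4) and Runx2 at 133 led, and Klk1 and Pacsin1 were last at 0.876 and 0.932. The exonic length spans every annotated exon, 27382 bases for Tcf4, so the level of a gene with many alternative exons is understated.

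The stretch before the start was read for the genes whose levels moved together over the marrow groups. RefSeq windows on GRCm38.p6 were at hand for 6 of the 8 genes, not for Tcf4 and Ly6d. The 250 bases before the start were searched on both strands for a TCF4-type E-box (CAGGTG or its reverse CACCTG), an Ets core (GGAAGT or ACTTCC), a Runx core (TGTGGT or ACCACA) and an interferon-response element (GAAANNGAA or TTCNNTTTC). Of 32851 windows of this length, 17.2% held the E-box, 19.7% the Ets core, 14.0% the Runx core and 7.13% the interferon element. Siglech, Klk1 and Pacsin1 are shown as genes low in lineage-negative marrow, and Bst2 as the gene higher in AML throughout. All are written 5′ to 3′ along the gene's strand, with motif matches in capitals.
Siglech, chr7:55767934-55768183, plus strand: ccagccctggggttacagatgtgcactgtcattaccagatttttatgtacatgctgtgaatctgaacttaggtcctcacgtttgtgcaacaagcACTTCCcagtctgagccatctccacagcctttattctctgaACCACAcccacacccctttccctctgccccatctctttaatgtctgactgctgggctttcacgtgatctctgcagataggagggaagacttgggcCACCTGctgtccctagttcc
Klk1, chr7:44225110-44225359, plus strand: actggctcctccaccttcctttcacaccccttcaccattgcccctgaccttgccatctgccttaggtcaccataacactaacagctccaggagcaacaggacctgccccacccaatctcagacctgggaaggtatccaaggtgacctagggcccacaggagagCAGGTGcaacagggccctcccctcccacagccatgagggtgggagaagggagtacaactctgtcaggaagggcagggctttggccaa
Pacsin1, chr17:27684989-27685238, plus strand: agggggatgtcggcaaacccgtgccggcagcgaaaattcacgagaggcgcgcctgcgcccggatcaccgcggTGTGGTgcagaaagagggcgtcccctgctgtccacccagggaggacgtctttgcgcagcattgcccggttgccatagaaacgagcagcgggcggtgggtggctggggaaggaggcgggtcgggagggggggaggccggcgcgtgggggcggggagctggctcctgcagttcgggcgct
Bst2, chr8:71537473-71537722, minus strand: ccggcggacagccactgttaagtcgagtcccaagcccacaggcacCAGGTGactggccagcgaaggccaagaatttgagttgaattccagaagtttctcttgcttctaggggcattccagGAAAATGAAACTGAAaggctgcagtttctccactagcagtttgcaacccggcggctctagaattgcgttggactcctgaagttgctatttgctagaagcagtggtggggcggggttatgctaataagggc
Counting back from the start, Siglech held an Ets core at -156, a Runx core at -115 and the E-box at -20. Klk1 held the E-box at -87, and Pacsin1 a Runx core at -178. Bst2 held the E-box at -205 and a pair of overlapping interferon elements beginning at -130 and -124. The Runx2 window had a Runx core at -80, and the Spib window had no match. The Bst2 start lies outside the GENCODE transcripts of the gene. The Pacsin1 window, ending at 27685238, lies downstream of the first annotated start of the gene at 27655509, so it precedes a later start. A match describes the letters of the window and is no evidence of binding.

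The 8 genes were high and low in much the same AML libraries. The plot of AML deviations shows replicate 6 lowest for 8 of 8 genes, at an average log2 deviation of -2.20 from the AML mean, with single genes from -3.65 for Siglech to -1.14 for Bst2. Replicates 2 and 7 were among the highest 3 for all 8 genes, and replicate 4 for 6. Replicate 3 split the set. Its log2 deviation was -1.96 for Siglech and -1.29 for Klk1, but 0.70 for Spib and 0.45 for Ly6d.

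**Figure D3:**
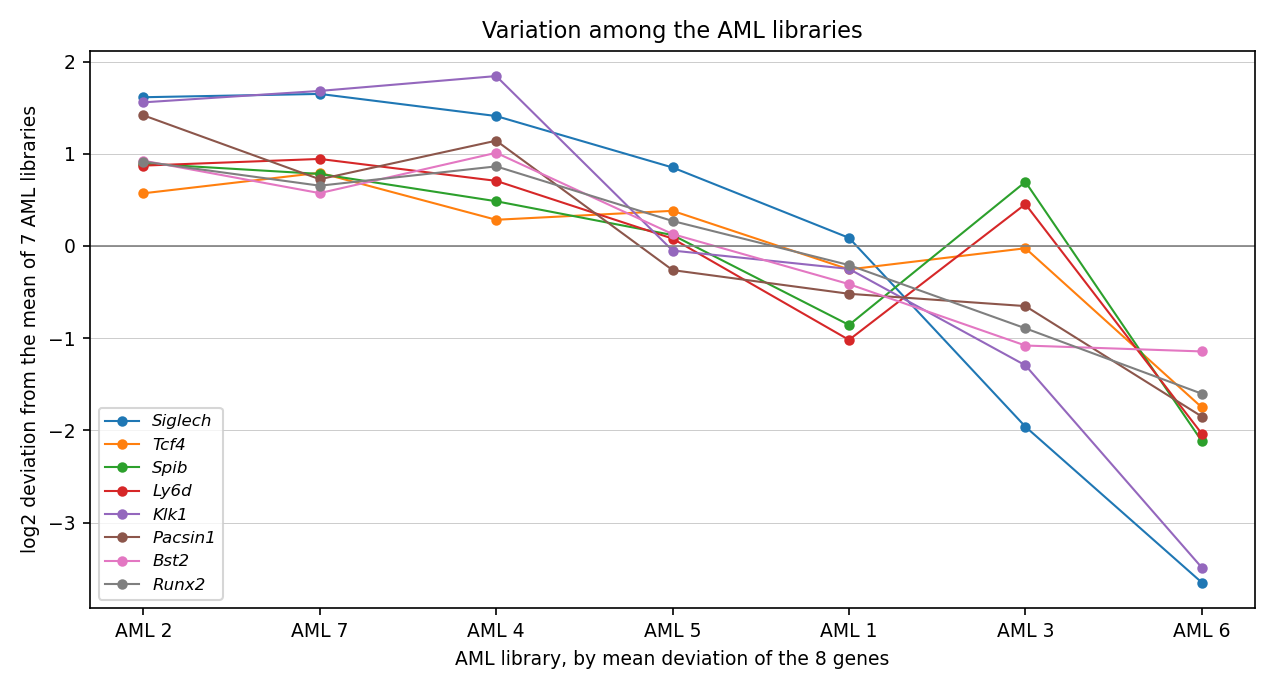
Each line is 1 gene, plotted as its log2 deviation from the mean of the 7 AML libraries (vertical axis) against the AML libraries in order of their mean deviation. In AML 3 the genes lie on both sides of 0, with Spib and Ly6d above it and Siglech, Klk1 and Bst2 more than 1 below it; all 8 are lowest in AML 6, where they range from -3.65 to -1.14.

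The spread of these genes in AML was wide. The SD of the log2 values over the 7 AML libraries was 2.05 for Siglech and 1.94 for Klk1, against a median of 0.29 over 12651 genes with a mean of at least 50, and 0.577% and 0.680% of those genes had a larger SD. For Tcf4, the steadiest of the 8 in AML, the SD was 0.85 and 7.06% had a larger one. In whole marrow, by contrast, Siglech and Klk1 had SDs of 0.24 and 0.25. Other measures moved in the same libraries. AML replicate 6 had the highest receptor-gene signal of the AML libraries, and its T and NK cell marker sum of 2206 normalized counts was the highest beside the 2187 of replicate 3, with 438 to 1391 in the other 5. Replicate 6 was also lowest in the sum of 22 other genes known from plasmacytoid dendritic cells, 31533 normalized counts against 47920 to 73126. Its sum of conventional dendritic cell markers, 3649.6, was the lowest too. Its monocyte marker sum of 97412 lay inside the AML range of 76128 to 143248. AML replicate 3 had the highest sum of 10 B cell markers, 9205 against 739 to 5061, and of 10 conventional dendritic cell markers, 21101.5 against 3649.6 to 8474. Xcr1, a receptor of type 1 conventional dendritic cells, had 1230 normalized counts in AML replicate 3 and 64.9 to 172 in the other 6. The part of these signals in the values of the 8 genes was not tested.

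Ratios within a library do not depend on the scaling factor, apart from the pseudocount of 1, and 5 were taken with a partner gene in 3 comparisons each, 15 exact two-sided permutation tests in all. Tcf4 relative to Id2, the gene of the inhibitor that opposes it, stood at a log2 ratio of 3.42 ± 0.39 (n = 4) in lineage-negative marrow, -0.01 ± 0.30 (n = 4) in whole marrow and 0.28 ± 1.05 (n = 7) in AML. The AML ratio was lower than the lineage-negative one by a log2 difference of -3.13, with 7 of 7 AML libraries below all lineage-negative libraries (exact permutation p = 0.00303, the smallest 330 splits allow; Benjamini-Hochberg adjusted p = 0.0227). Id2 itself was 3.77 higher on the log2 scale in AML than in lineage-negative marrow, with 98.0 to 182 normalized counts in the lineage-negative libraries and 1476 to 3093 in AML. Against whole marrow the Tcf4 to Id2 ratio differed by 0.29 (exact permutation p = 0.63).

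Pacsin1 relative to Pacsin2, its broadly expressed relative, was 5.01 higher in AML than in lineage-negative marrow in 7 of 7 libraries (exact permutation p = 0.00303, adjusted p = 0.0227), and Pacsin2 alone differed by 0.20. Leaving out lineage-negative replicate 1, 2 or 3 took the adjusted p of this ratio and that of Tcf4 to Id2 to 0.0536. With fewer libraries the smallest possible p is larger. The log2 differences stayed at 4.67 to 5.40 for Pacsin1 to Pacsin2 and at -3.20 to -2.94 for Tcf4 to Id2. Spib relative to Spi1, which encodes the myeloid Ets factor PU.1, was lower in 7 of 7 AML libraries than in whole marrow, with a mean log2 ratio of -2.86 ± 1.26 (n = 7) against -0.74 ± 0.35 (n = 4). The exact permutation p was 0.0121 and the adjusted p 0.0536, which came to 0.0238 without AML replicate 1 or 6 and to 0.0455 without lineage-negative replicate 4. Its difference of 2.54 from lineage-negative marrow had an exact permutation p of 0.0182 and an adjusted p of 0.0536, which became 0.0357 when AML replicate 6 was left out and 0.0417 when lineage-negative replicate 4 was. For Runx2 to Runx1 and Siglech to Tyrobp, the comparisons with AML gave exact permutation p-values of 0.115 to 0.594. With 4 against 4 libraries the smallest possible p is 0.0286, which was reached by 4 of the 5 ratios between lineage-negative and whole marrow, each with non-overlapping groups and an adjusted p of 0.0536. Of these, Tcf4 to Id2 was higher in lineage-negative marrow and the other 3 were lower.

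**Figure D4:**
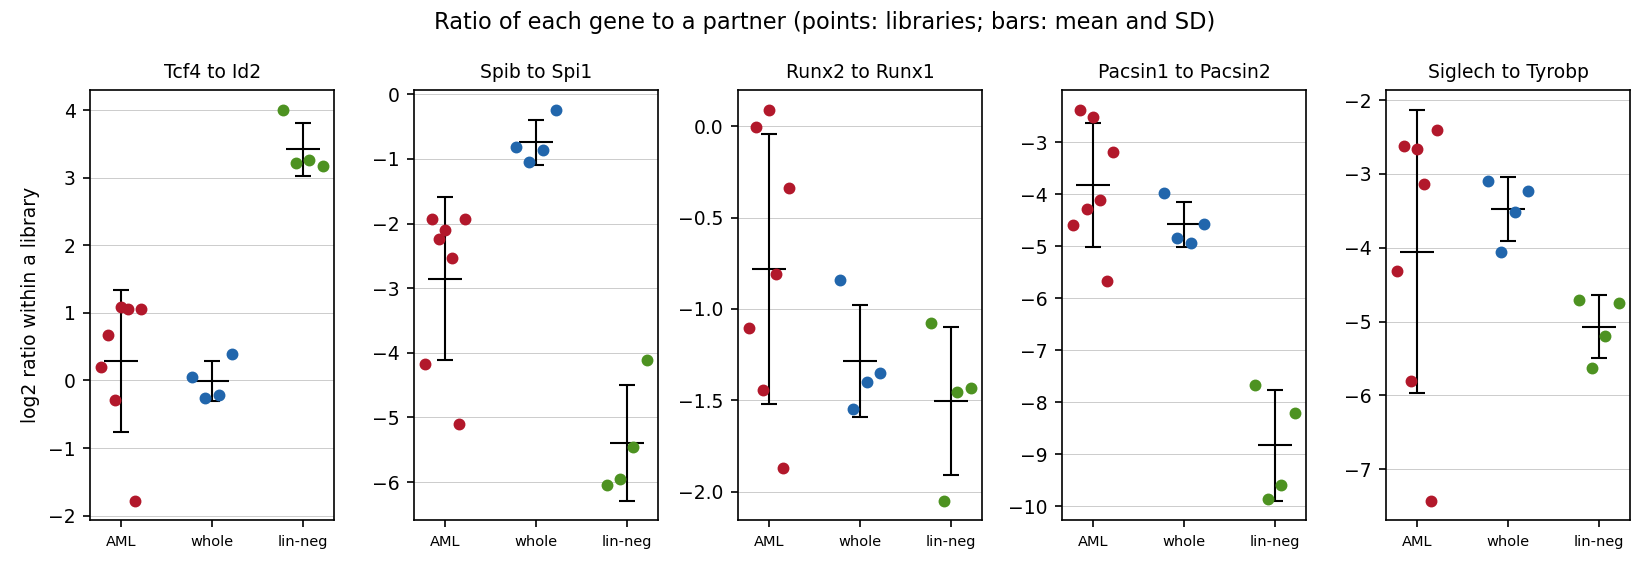
Log2 ratio of each gene to its partner within a library (vertical axes, on separate scales), with AML, whole and lineage-negative (lin-neg) libraries as points and the mean and SD as bars. Tcf4 to Id2 is highest in lineage-negative marrow (3.42), and Spib to Spi1 is highest in whole marrow (-0.74).

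Another 22 genes known from plasmacytoid dendritic cells were read from a separate list. In AML against whole marrow 17 of 22 were higher and 0 lower, with a median log2 difference of 1.55 beside 0.67 for all genes. TMM scaling left 9 higher and 0 lower, with a median of 0.87. In AML against lineage-negative marrow 15 of 22 were higher and 0 lower (median 1.58, beside 0.02 for all genes). Of all genes tested, 27.3% were called higher in AML than in whole marrow (4.92% under TMM scaling) and 17.7% higher than in lineage-negative marrow. Between the wild-type groups 5 of the 22 were higher and 5 lower in lineage-negative marrow, or 3 and 10 under TMM scaling. Genes of nucleic acid sensing were among the 22. Tlr7 and Tlr9, the endosomal receptors for single-stranded RNA and CpG DNA, were higher in AML than in whole marrow by 2.09 and 2.64 on the log2 scale and than in lineage-negative marrow by 4.61 and 3.34, in 7 of 7 libraries. Unc93b1, whose product carries these receptors to endosomes, was higher by 1.81 and 1.78, and Pld4, an endolysosomal nuclease, by 2.21 and 3.27. Irf8, a factor of both monocytes and dendritic cells, was higher by 2.33 and 1.12. Irf7, the factor that drives the interferon response of these cells and is itself induced by interferon, was higher by 1.60 and 3.55, and fell short of 1 against whole marrow after TMM scaling (0.93). For Tlr7, Tlr9, Unc93b1, Pld4 and Irf8 the differences from whole marrow after TMM scaling were 1.42, 1.96, 1.13, 1.53 and 1.65, and all 5 still passed. In AML replicate 6, where Siglech was 55.5, Tlr7, Tlr9, Unc93b1 and Pld4 had 780, 349, 7252 and 3886 normalized counts. The highest whole-marrow values were 367, 244, 3596 and 1959. Monocyte and conventional dendritic cell markers were higher in AML too, and which cells carried these transcripts was not tested.

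Some genes of the list did not differ from whole marrow by the test. Ccr9, a homing receptor of these cells, had 207, 752, 146, 760.5, 336, 56.7 and 675.9 normalized counts in AML replicates 1 to 7 and 200.1 to 302 in whole marrow, with a log2 difference of 0.28 that did not pass the test (adjusted p = 0.656; -0.39 after TMM scaling). Cox6a2, a mitochondrial subunit gene of muscle and plasmacytoid dendritic cells, did not pass it either (log2 difference 0.29, adjusted p = 0.664; -0.37 after TMM scaling), and its AML replicate 6, at 102 normalized counts, was not low. Both were higher in AML than in lineage-negative marrow, by 2.15 and 1.69. Bcl11a, a factor upstream of Tcf4 that is also active in progenitors and B cells, was higher in AML than in whole marrow by 1.29, or 0.61 after TMM scaling, and differed from lineage-negative marrow by -0.66 (adjusted p = 0.117).

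Relatives and cofactors of the transcription factors showed their own orders. Of 6 E protein and Id genes, Id1, Id2 and Id3 were higher and Tcf3, which encodes the E protein E2A, was lower by 1.10 in AML than in lineage-negative marrow. Against whole marrow Id1 and Id2 were higher and Id4 lower, and TMM scaling left Id4 alone. Id4 was low throughout, with 13.6 to 25.9 normalized counts in whole marrow beside a length-scaled receptor-gene signal of 7.31 to 13.8. In AML 3 of 7 libraries were at or under the level of 3 reads for Id4. Of 6 Ets and Runx genes, Spi1 was higher in AML by 1.20 than in whole and by 1.83 than in lineage-negative marrow, the first call being lost under TMM scaling at 0.52. Spic, another Ets relative of Spib, was lower in AML than in whole marrow by 1.00 (limma adjusted p = 0.0277, and -1.67 after TMM scaling). It was higher than in lineage-negative marrow by 2.04. Runx1 and Runx3 were higher in AML than in whole marrow by 1.41 and 1.33, or 0.73 and 0.65 after TMM scaling, and neither passed the test against lineage-negative marrow. Among Siglec-family genes and the adaptor Tyrobp in 1 list of 7, 6 were higher in AML than in lineage-negative marrow and Siglecf, the eosinophil receptor gene, was lower. Against whole marrow 1 of the 7, Tyrobp, was higher and 1, Siglecf, lower, and TMM scaling left 0 higher and Siglecf lower.

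Several of the 8 genes are also active in other marrow cells, so those cells' markers were read beside them. B cell markers bear on Spib, Ly6d and Tcf4. Of 10, 9 were lower and 0 higher in AML than in whole marrow, 8 were higher and 0 lower in AML than in lineage-negative marrow, and 10 were lower in lineage-negative than in whole marrow, with the same counts of 9, 8 and 10 under TMM scaling. Their summed level was 739 to 9205 normalized counts in AML, 4688 to 9920.4 in whole and 359 to 683 in lineage-negative marrow. Pax5, the gene of the B cell commitment factor, was listed at 0 in 1 lineage-negative library. Conventional dendritic cell markers were higher in AML than in whole marrow for 9 of 10 genes, or 6 under TMM scaling, with sums of 3649.6 to 21101.5 in AML and 871 to 1740.4 in whole marrow. Against lineage-negative marrow, with sums of 1141.5 to 1613, 9 of 10 were higher. Monocyte markers were higher for 7 of 8 genes against whole marrow, or 5 under TMM scaling, and for 8 of 8 against lineage-negative marrow. The shares of all genes called higher in AML were 27.3%, 4.92% and 17.7% in that order.

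Markers of early lymphoid progenitors, which share Ly6d and Tcf4, split: of 6, Flt3 and Notch1 were higher and Dntt, Rag1 and Rag2 lower in AML than in whole marrow. Under TMM scaling Flt3 alone was higher and Il7r joined those lower. Against lineage-negative marrow Dntt and Rag2 were lower and 0 were higher, or 1 higher under TMM scaling. The labelled genotype carries an altered FLT3 allele, and reads of that allele could not be told from those of Flt3 in this table. Of 5 plasma cell markers 2 were higher in AML than in whole marrow, Prdm1 and Xbp1, of which TMM scaling left Prdm1, and 3 were higher than in lineage-negative marrow. Xbp1 is also used by plasmacytoid dendritic cells. The part of these cell types in the levels of the 8 genes was not tested.

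Likeness to other genes was measured as the root mean square difference between log2 values, each centred on its own mean, over the 15 libraries and 11252 named genes. The libraries share group, depth and scaling, so the lists describe these samples. Spib and Ly6d were each other's nearest gene, 0.38 apart, and next to Spib came Bank1 at 0.69 and Blnk at 0.84, adaptor genes of B cell receptor signalling. Klk1 was nearest to Pacsin1, at 1.06, and Siglech had Pacsin1 at rank 7. From the side of Pacsin1, Siglech had rank 61 and Klk1 rank 82. The 3 genes nearest to Siglech were Egfr (0.80), Slc41a2 (0.83) and Hpgd (0.89). Slc41a2 and Hpgd were also the nearest to Pacsin1, at 0.68 and 0.75, ahead of Slfn5 at 0.77. Ly6d had Hpgd (0.69) and Havcr1 (0.80) after Spib, and Klk1 had Pltp (1.13) and Havcr1 (1.16) after Pacsin1.

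Tcf4, Bst2 and Runx2 formed the other set. Tcf4 was nearest to Zc3h12c (0.26), Ccdc88a (0.29) and Pot1b (0.29). Runx2 was nearest to Slc27a1 (0.39), Sema4c (0.40) and Arhgap17 (0.41), with Tcf4 at 0.47 as its nearest gene among the other 7. Bst2 was nearest to Rtn4rl1 (0.34), Irf8 (0.38) and Abhd15 (0.40). Irf8 had 14597 ± 4591 normalized counts (n = 7) in AML, 2784 ± 525.9 (n = 4) in whole and 6527 ± 1640.3 (n = 4) in lineage-negative marrow, the same order as Bst2. The distance from Tcf4 to Siglech was 1.91, and that from Tcf4 to Spib 2.32.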

How the data were processed

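Total RNA from mouse bone marrow was extracted with TRIzol and sequenced from stranded total-RNA libraries, per the labels' protocols. The submitters' processing notes name Partek, STAR, DESeq2 and the build mm10. The deposited values are a signal: counts per gene that the authors divided by 1 DESeq2 size factor of the poscounts type per library, per the name of the table. Counting of multi-mapping reads and strand are not given in the sources used here. Of 38066 gene IDs shared with GENCODE M21 on GRCm38, 861 had the start given in the table, so the table's coordinates are not printed, and promoter sequences are RefSeq's on GRCm38.p6. Between 84.0% and 88.3% of low values per library were whole multiples of 1 step, to within 0.02 of a step, which gave the depth estimates; whole reads were not recovered, so no count model was used.

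Groups came from sample titles. Genes with at least 10 in at least 4 libraries were kept (18941), and limma 3.58.1 (R 4.3.3) was fitted to log2(value + 1) as 3 group means over 15 libraries (trended empirical Bayes, two-sided, Benjamini-Hochberg over all genes kept). A fold change is on the log2(value + 1) scale and understates the change of low genes. The scripts were tested on simulated data. Ratios were tested by exact permutation in scipy 1.17.1. The 8 genes, the gene lists and the partner genes were chosen with earlier results of these data known. All 8 genes are named, with listed genes and the 3 nearest genes of each. Alternatives covered pseudocounts of 0.1 and 5, filters that kept all genes above 0 or those with a mean of at least 50, TMM factors computed on the deposited values, quantile scaling, robust variance, separate pairs, a replicate block, subtraction of receptor-gene signal and leaving out libraries.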

Additional observations from a re-analysis of the deposited data

Results flagged for a closer look

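Of 24 combinations of gene and group, 1 held a library far from the rest of its group. Spib in lineage-negative replicate 4 had 79.0 normalized counts, against 25.6 to 29.05 in the other 3 libraries, and the gap took 0.935 of the range, above the critical value of 0.829 for 4 libraries. Chance flags about 1 in 20 groups. The same library had the highest Ly6d value of its group, 48.3 normalized counts, and the highest B cell marker sum, 683 against 359 to 476. The part of these B cell transcripts in the Spib value was not tested. Without that library the log2 difference of Spib between AML and lineage-negative marrow was 4.74, against 4.37 with it.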

How the results depend on the processing

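Scaling between libraries moved the comparisons with whole marrow. The number of the 8 genes higher in AML than in whole marrow went from 4 to 2 with TMM scaling and to 2 with quantile scaling, and the number lower from 0 to 1 and 2. The number higher in lineage-negative than in whole marrow went from 1 to 0 with each of these, and to 2 after subtraction of receptor-gene signal. Leaving out 1 library gave 1 to 2: Bst2 passed without whole-marrow replicate 2 or lineage-negative replicate 3, and Tcf4 without whole-marrow replicate 4. Siglech in AML against whole marrow turned from 0.48 to -0.20 with TMM and -0.31 with quantile scaling. The cause was not tested. With both pseudocounts, both filters, separate pairs and robust variance, 24 of 24 log2 differences kept their direction and their side of the threshold, and over single libraries left out 350 of 360 did, with 6 losing and 4 gaining a call. The labels do not say whether replicate numbers pair the samples. Deviations of same-numbered libraries correlated at -0.288 to 0.171, which cannot settle it with so few libraries. With the replicate block Klk1 passed the test in AML against whole marrow, at 1.43 (limma adjusted p = 0.0391), and 23 of 24 calls were as without it. In lineage-negative marrow Klk1 and part of Pacsin1 lie at or under 3 reads, which depth cannot resolve.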
